A study of Mus musculus with 14 samples.

Results

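The genes described here are 32 enzymes and regulators of sterol and fatty acid synthesis, chosen by symbol. They comprise 19 genes of sterol synthesis and handling, 5 genes of the sterol sensor and its transcription factors, and 8 genes of fatty acid synthesis and desaturation. All 32 are listed in each of the study's tables, among 50600 genes in the bulk table, 32285 genes in the stromal single-cell tables and 11992 genes in the single-cell table of blood-forming progenitors. The study profiled bone marrow cells of tumour-free mice and of mice that carry a breast tumour, to describe how the marrow is altered by a tumour elsewhere in the body. In bulk, mesenchymal stem cells (MSC) of tumour-free mice (4 libraries) were set against those of tumour-bearing mice labelled Py230 (4 libraries), Py230 being a mammary tumour cell line that came from a PyMT mouse. By single-cell sequencing, stromal cells of 1 wild-type (WT) and 1 PyMT library, and hematopoietic stem and progenitor cells (HSPC) of 2 WT and 2 PyMT mice, were compared. A PyMT mouse carries a transgene for the polyoma middle T antigen and develops mammary tumours of its own. The 2 tumour models therefore differ, and so do the cells and the assay. No source used here gives strain, age, the time since tumour onset or the gates of the sorts. Each of the 4 HSPC titles begins with PyMT, but 2 of these libraries are WT by their genotype label and in the deposited cell table, and the genotype was used.

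Cells make cholesterol from acetyl-CoA through mevalonate, farnesyl diphosphate, squalene and lanosterol, one enzyme after another. When sterol in the endoplasmic reticulum runs low, Scap carries the precursor of the transcription factor Srebf2 to the Golgi, where it is cut and released to the nucleus to switch on the enzymes of the pathway. Insig1 and Insig2 are anchors that hold Scap back when sterol is plentiful, and Insig1 is itself a target of Srebf2. Srebf1 acts in the same way with a preference for the genes of fatty acid synthesis, among them Acly and Acaca, which supply the building blocks, Fasn, which assembles palmitate, and the desaturases Scd1, Scd2, Fads1 and Fads2. Marrow stromal cells that express the leptin receptor (Lepr) lie close to the adipocyte lineage, and dividing progenitors need sterol for new membrane.

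The stretches of DNA before the starts of 4 of the 5 members that changed in bulk, and of Hmgcs1, which did not pass there, are shown because these genes share regulators. Stard4, the fifth, is named only. They come from the RefSeq promoter table (mouse build GRCm38.p6), in which 25 of the 32 members had an entry. Each is read 5′ to 3′ on the gene's strand from 250 bases before the RefSeq start. Bases next to the start that GENCODE M21 counts as an exon of the same gene are left out. Capitals mark matches to CCAAT on either strand (ATTGG on the other) and to TCACNCCAC, a form of the sterol response element bound by Srebf2. No 2 capitalised matches share a base in these windows. Over the full 250 bases Cyp51 has 1 CCAAT match and Hsd17b7 has 3. The match of Cyp51 and 1 match of Hsd17b7 lie in the exon bases left out. Cyp51 lies at chr5:4104747-4104947 (-), Hsd17b7 at chr1:169969242-169969455 (-), Insig1 at chr5:28071162-28071362 (+), Insig2, by its outermost start, at chr1:121332590-121332839 (-), and Hmgcs1, the member with the TCACNCCAC match, at chr13:119690101-119690350 (+).
Cyp51: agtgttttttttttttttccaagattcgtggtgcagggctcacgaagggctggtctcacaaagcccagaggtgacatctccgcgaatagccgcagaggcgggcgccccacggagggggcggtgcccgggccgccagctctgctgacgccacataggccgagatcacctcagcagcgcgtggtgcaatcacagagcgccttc
Hsd17b7: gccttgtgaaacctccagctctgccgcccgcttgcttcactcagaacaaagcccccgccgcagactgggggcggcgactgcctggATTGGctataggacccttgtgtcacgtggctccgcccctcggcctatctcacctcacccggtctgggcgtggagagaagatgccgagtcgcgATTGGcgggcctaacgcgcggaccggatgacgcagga
Insig1: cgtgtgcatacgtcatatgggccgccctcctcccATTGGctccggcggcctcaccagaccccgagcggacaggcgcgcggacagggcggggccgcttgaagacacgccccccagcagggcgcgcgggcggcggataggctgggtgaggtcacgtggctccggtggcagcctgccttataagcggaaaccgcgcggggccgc
Insig2: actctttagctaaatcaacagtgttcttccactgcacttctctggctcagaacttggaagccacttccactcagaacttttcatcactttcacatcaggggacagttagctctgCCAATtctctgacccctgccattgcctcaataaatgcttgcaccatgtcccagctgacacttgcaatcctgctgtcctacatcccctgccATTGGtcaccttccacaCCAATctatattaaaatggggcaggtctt
Hmgcs1: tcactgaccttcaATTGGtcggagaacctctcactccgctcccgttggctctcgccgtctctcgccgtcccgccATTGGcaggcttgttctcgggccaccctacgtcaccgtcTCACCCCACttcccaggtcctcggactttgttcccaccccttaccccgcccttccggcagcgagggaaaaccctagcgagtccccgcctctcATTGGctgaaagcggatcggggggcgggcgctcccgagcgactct
The 25 members have 33 windows of the full 250 bases, since some have several starts. CCAAT was found in 20 of these 33 windows, against 33.8% of the 32851 windows of that length in the table. GGGCGG, the core of a GC box, was found in 24 of the 33, against 32.7% of all windows. CACGTG, an E-box form, was found in 5 of the 33 (Dhcr7, Hsd17b7, Insig1, Sc5d and Scap), against 6.02%. TCACNCCAC was found in 1 of the 33, that of Hmgcs1, against 1.05% of all windows. All motifs were searched on both strands. A match describes letters only and does not show a bound site.

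The bulk libraries held 4301375 to 9811251 counted reads. Libraries of the same group differed by more than sampling noise, and tumour-free replicate 1 and Py230 replicate 3 held the fewest genes at equal depth (23140 and 19582, against 28182 to 36678 in the others). After filtering, 2190 of 2508 WT and 3191 of 3563 PyMT stromal cells were kept, and the HSPC libraries held 2210 to 5608 cells. Stromal libraries shared 2 cell barcodes and HSPC pairs shared 8 to 23. The labelled MSC expressed the markers of Lepr stromal cells at a summed level of 15834 to 34400 CPM (reads scaled to library size with TMM factors), and markers of macrophages at 51.6 to 110 CPM. Exons of 11 of the 32 members overlap those of another gene, among them Cyp51 with Akap9 on the other strand and Fdft1 with the lysosomal protease gene Ctsb. Since no source used here gives the strand setting of the counting, reads in those overlaps cannot be told apart, nor can those of the near-identical pair Acat2 and Acat3.

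In bulk MSC, 3 genes of the sterol arm were lower in tumour-bearing mice and no gene of the fatty acid arm passed the test. Of the 18 sterol synthesis genes tested, Cyp51, Hsd17b7 and Stard4 fell and none rose. Among all 16317 genes tested, 2.74% fell and 1.99% rose. The sterol genes had a median log2 change of -0.47, against 0.04 over all genes tested, and 15 of the 18 lay below 0, against 7376 of 16317 genes. In 8 of the 18 (Mvk, Pmvk, Idi1, Cyp51, Hsd17b7, Sc5d, Dhcr7 and Stard4) every Py230 library lay below every tumour-free library, which was so for 5.6% of all genes tested. In none of the 18 did every Py230 library lie above, against 5.34% of all genes. The summed level of the sterol synthesis genes was 231 to 323 CPM in tumour-free and 157 to 240 CPM in Py230 libraries. Adjusted p-values here are from edgeR's quasi-likelihood test with Benjamini-Hochberg adjustment over all genes tested. The labels do not say that libraries came from separate animals, so the p-values measure the spread between libraries, which may be technical.

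**Figure D1:**
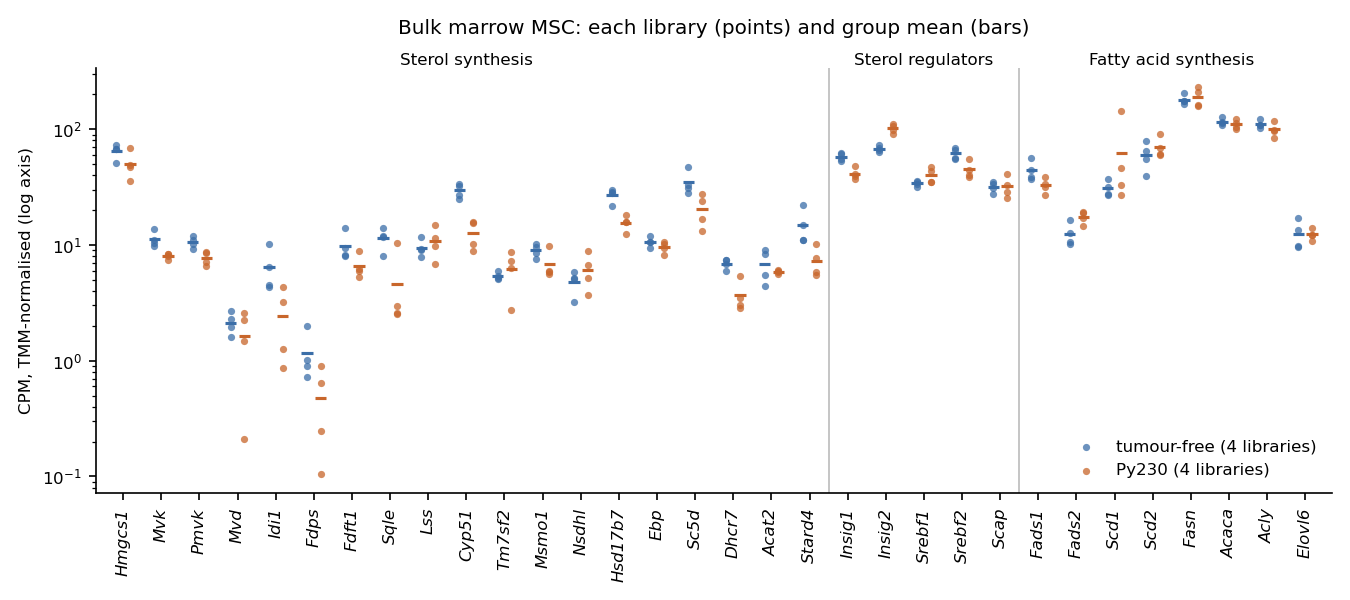
Level of each of the 32 genes in the 8 bulk MSC libraries, in TMM-normalised CPM on a log axis. Points are single libraries (blue tumour-free, orange Py230) and short bars are group means. Cyp51 and Hsd17b7 separate downwards, Insig2 separates upwards, and the fatty acid genes overlap.

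Cyp51 (ENSMUSG00000001467, chr5:4081145-4104746, minus strand), the lanosterol demethylase that opens the sterol branch after ring closure, stood at 32.6, 27.3, 33.5 and 25.0 CPM in tumour-free replicates 1 to 4. In Py230 replicates 1 to 4 it stood at 8.84, 15.6, 10.2 and 15.9 CPM. The groups did not overlap, and the level was 2.35-fold lower (log2 change -1.23, SE 0.20, adjusted p = 0.00263). Hsd17b7 (ENSMUSG00000026675, chr1:169949535-169969241, minus strand), the keto reductase that acts after demethylation, stood at 29.6, 28.8, 28.2 and 21.7 CPM in tumour-free libraries. In Py230 libraries it stood at 12.5, 15.7, 15.8 and 18.1 CPM. Every Py230 library was again below the lowest tumour-free one, a 1.74-fold fall (log2 change -0.80, SE 0.16, adjusted p = 0.00961). Both calls held when any 1 library was left out.

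Stard4 (ENSMUSG00000024378), a soluble carrier that moves cholesterol between membranes, stood at 22.1, 11.0, 14.9 and 11.0 CPM in tumour-free and at 7.76, 5.45, 5.79 and 10.2 CPM in Py230 libraries. It fell 2.07-fold (log2 change -1.05, SE 0.27, adjusted p = 0.0444), but tumour-free replicate 1 stood well above the rest of its group. The call was kept in 3 of the 8 fits that left out 1 library (Py230 replicate 4, tumour-free replicate 2 or tumour-free replicate 4). Without both libraries of lowest gene number the change was -0.72 with adjusted p = 0.237.

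The remaining sterol enzymes did not pass edgeR's test, and most lay below 0, while DESeq2 also called Sqle and Sc5d lower. Idi1, the isomerase that makes the starter unit of isoprenoids, had a log2 change of -1.42 (adjusted p = 0.125) at 4.36 to 10.3 against 0.862 to 4.31 CPM. Squalene epoxidase, Sqle, had -1.38 (adjusted p = 0.0914), with 3 Py230 libraries at 2.53 to 2.97 CPM and the fourth at 10.4 CPM, inside the tumour-free range of 7.99 to 14.1 CPM. Dhcr7, the last reductase before cholesterol, had -0.92 (adjusted p = 0.0952), and the desaturase Sc5d, one step earlier, had -0.77 (adjusted p = 0.0875). Both lay lower in every Py230 library than in any tumour-free one. Hmgcs1, the synthase at the head of the pathway and its most abundant member by read number, stood at 72.4, 67.2, 67.9 and 51.1 CPM in tumour-free libraries. Its Py230 values of 35.6, 49.1, 46.9 and 69.1 CPM overlapped these (log2 change -0.37, SE 0.17, adjusted p = 0.315). Lss, Tm7sf2 and Nsdhl lay above 0, at log2 changes of 0.16 to 0.34. Fdps, the farnesyl diphosphate synthase, was too low to be tested, with 5 to 12 reads in tumour-free and 1 to 4 reads in Py230 libraries. Exons of Gm43738 on the same strand overlap 1124 of its 4208 exon bases, and the part of this in the low count was not tested. In the LepR mesenchymal-like stromal cluster described below, Fdps stood at 10.3 CPM in WT and 8.69 CPM in PyMT cells.

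Of the 5 regulators, 1 fell and 1 rose, and these were the paired anchors Insig1 and Insig2. Insig1 (ENSMUSG00000045294, chr5:28071363-28078662, plus strand) stood at 61.3, 55.7, 61.9 and 52.7 CPM in tumour-free and at 39.5, 41.4, 37.1 and 47.8 CPM in Py230 libraries. The groups did not overlap (1.40-fold lower, log2 change -0.49, SE 0.11, adjusted p = 0.0202). Leaving out Py230 replicate 2, tumour-free replicate 1 or tumour-free replicate 3 ended the call (adjusted p = 0.061, 0.0571 and 0.0574), as did leaving out both libraries of lowest gene number (adjusted p = 0.109). Insig2 (ENSMUSG00000003721, chr1:121304353-121332589, minus strand) moved the other way, from 72.6, 65.5, 64.0 and 68.9 CPM to 91.4, 111, 107 and 97.7 CPM. It was 1.51-fold higher (log2 change 0.59, SE 0.10, adjusted p = 0.00299), with no overlap, and the call held when any 1 library was left out. Srebf2 had a log2 change of -0.46 (edgeR adjusted p = 0.0541), from 55.1 to 68.9 CPM against 39.0 to 55.5 CPM, and DESeq2 called it lower. Srebf1 had 0.23 and Scap 0.01, neither past the threshold. The regulators had a median of 0.01 and nearly equal sums in both groups, 242 to 265 and 248 to 269 CPM.

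None of the 8 fatty acid genes passed edgeR's test, 2 of them had an unadjusted p under 0.05 (Fads1 and Fads2), and DESeq2 called 0. Their median log2 change was 0.04, equal to that of all genes tested, and their sums were 538 to 627 CPM in tumour-free and 522 to 655 CPM in Py230 libraries. Fasn stood at 205, 175, 166 and 175 CPM against 160, 209, 231 and 163 CPM, and the groups overlapped (log2 change 0.09, adjusted p = 0.837). Acaca, the carboxylase of the first committed step, had -0.07, and Acly, which splits citrate to acetyl-CoA, had -0.15. Scd1, the main inducible stearoyl desaturase, stood at 26.9, 31.9, 37.0 and 27.3 CPM against 144, 46.0, 33.3 and 27.0 CPM. Its log2 change of 1.0 (adjusted p = 0.466) rests on the 1 high Py230 library. Fads2 had 0.48 and Fads1 -0.44, so the 2 desaturases of polyunsaturated fatty acids lay on opposite sides of 0. Scd1 and Scd2 belong to a family of similar genes, so their reads may be split between copies. Per kilobase of exon, the tumour-free mean levels were highest for Acly (21.0 CPM per kb), Insig2 (19.5), Insig1 (18.7), Fasn (16.5) and Hmgcs1 (14.1), and Cyp51 stood at 6.70.

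Cell markers moved with these changes. Markers of Lepr stromal cells fell for 5 of 9 genes, with a sum of 29571 to 34400 CPM in tumour-free and 15834 to 19634 CPM in Py230 libraries. Markers of adipocytes fell for 5 of 9 tested, with sums of 2977 to 3188 and 1022 to 1412 CPM. The 2 lists share Adipoq and Lpl. The macrophage list summed to 51.6 to 64.8 and 74.6 to 110 CPM, and immediate-early genes, which dissociation of tissue can raise, to 37175 to 40173 and 36499 to 41609 CPM. Csf1r rose (log2 change 1.49), as did Hspa1b (1.35) and Hspa1a (1.05), while Klf6 fell (-0.67). Chondro-tendon markers summed to 141 to 229 and 175 to 456 CPM, with Acan (-2.24) and Sox9 (-0.78) lower. Osteolineage markers summed to 3204 to 6924 CPM in tumour-free and 1340 to 12191 CPM in Py230 libraries. Fibroblast markers summed to 1183 to 1414 CPM in tumour-free and 1439 to 1780 CPM in Py230 libraries. Sinusoidal endothelial markers summed to 1225 to 1617 and 798 to 886 CPM, with Vcam1 lower and Flt4 and Stab1 higher among 8 tested. The part of these differences in the fall of the sterol genes was not tested. In bulk RNA, fewer cells of a type and less RNA per cell cannot be told apart.

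Neighbouring pathways in the same libraries were read from lists. The branches from farnesyl diphosphate to prenyl groups, ubiquinone and dolichol had 0 of 10 genes called by edgeR, 0 with an unadjusted p under 0.05 and 0 by DESeq2. Of 13 tested genes of sterol uptake, storage and efflux, 2 rose and 2 fell. The risers were Mylip, a ligase that removes lipoprotein receptors (log2 change 0.81), and Abca1, which exports cholesterol (0.68), and the fallers were the cholesterol hydroxylase Ch25h (-1.22) and the esterifying enzyme Soat1 (-0.42). Among 12 genes of triglyceride synthesis and storage, Lpin1 rose (0.55), and Acsl1 (-0.85) and the lipid droplet coat Plin2 (-0.98) fell. Supply and elongation of fatty acids had 0 of 13 called by edgeR, 1 with an unadjusted p under 0.05 and 1 by DESeq2 (Acacb, higher). Fatty acid oxidation had 0 of 10 called by edgeR, 0 at an unadjusted p under 0.05 and 0 by DESeq2.

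**Figure D2:**
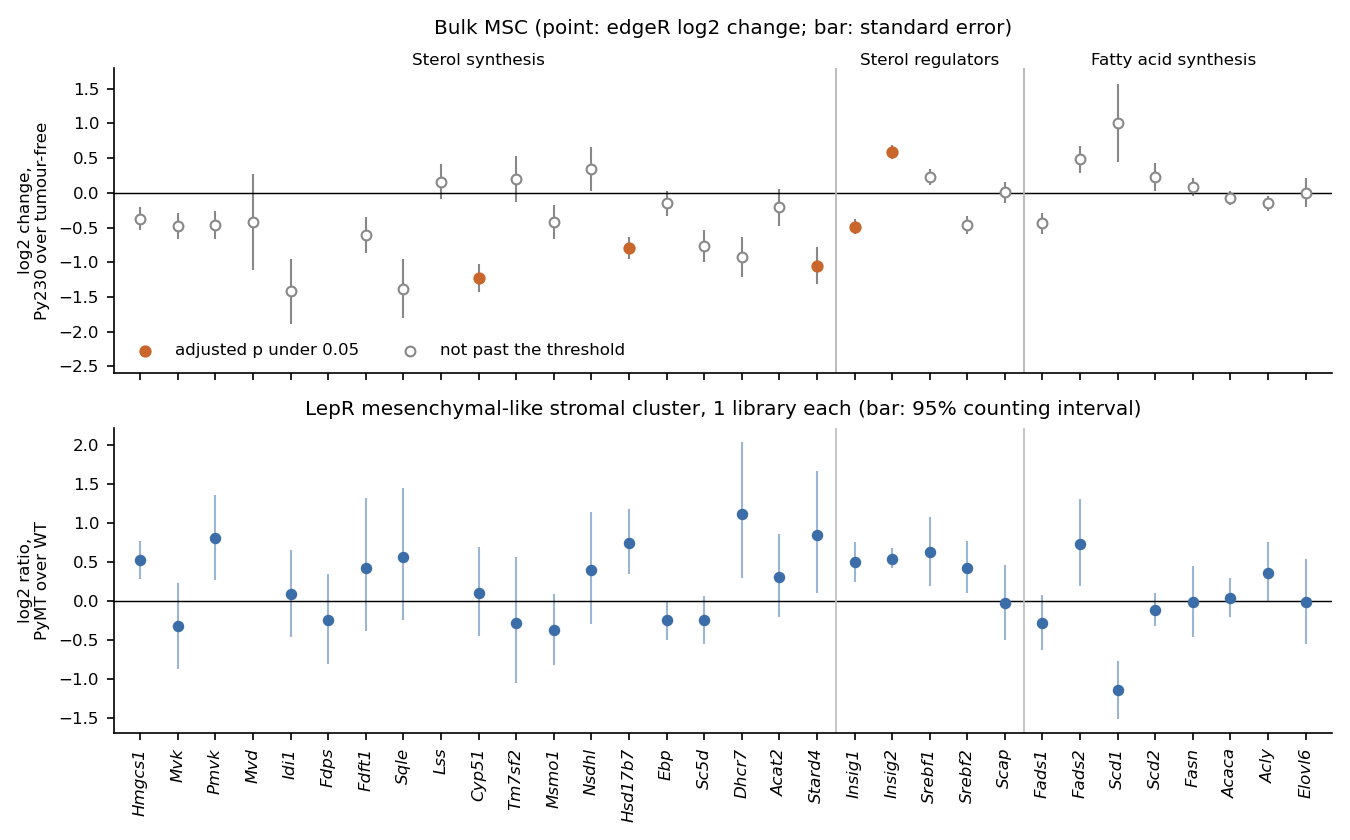
Log2 change of each gene, Py230 over tumour-free in bulk MSC (upper panel, bar: standard error, filled: adjusted p under 0.05) and PyMT over WT in the LepR mesenchymal-like stromal cluster (lower panel, 1 library per genotype, bar: 95% counting interval). Stard4, Hsd17b7 and Insig1 lie below 0 in the upper panel and above 0 in the lower one, while Insig2 lies above 0 in both.

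In the stromal single-cell data, the authors' cluster 0 is LepR mesenchymal-like by its markers (Hp, Adipoq, Esm1 and Cxcl12 are among its leading genes) and holds 977 WT and 2242 PyMT cells. There the sterol arm was not lower in the PyMT library. With 1 library per genotype there is no test: log2 ratios of CPM of unique molecular identifiers (UMIs) are given with 95% exact intervals that cover counting error only, and a gene counts as past the fold at a log2 ratio of at least 0.32 either way with at least 50 UMIs. Of the 17 sterol synthesis genes with enough UMIs, 8 were higher and 1 was lower past the fold, against 25.2% and 14.3% of the 11098 genes with enough UMIs. Their median log2 ratio was 0.32, against 0.09 over all genes, and their sum was 259 CPM (243 to 276) in WT and 296 CPM (286 to 307) in PyMT cells. When each cell was thinned to 1500 UMIs, because median depth was 3591 UMIs in WT and 4421 in PyMT cells, the median ratio was 0.09 and the log2 ratio of the sums 0.16 (-0.03 to 0.34).

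Hmgcs1 stood at 47.8 CPM in WT and 69.1 CPM in PyMT cells of the cluster (log2 ratio 0.53, 0.29 to 0.78). Hsd17b7 stood at 16.5 and 27.8 CPM (0.75, 0.35 to 1.18), the kinase Pmvk at 9.45 and 16.5 CPM (0.81, 0.28 to 1.37), Dhcr7 at 3.78 and 8.21 CPM (1.12, 0.30 to 2.05) and Stard4 at 4.86 and 8.79 CPM (0.85, 0.11 to 1.67). These 5 were higher in the PyMT library with intervals that leave out 0. The intervals of Fdft1, Sqle and Nsdhl, the others past the fold upwards, and of the methylsterol oxidase Msmo1, the 1 lower gene (-0.36, -0.81 to 0.10), include 0, and Nsdhl had -0.24 after thinning. Cyp51, the strongest fall in bulk among the called genes, stood at 9.72 and 10.5 CPM (0.11, -0.44 to 0.70).

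Of the 5 regulators, 4 were higher past the fold in the PyMT library, and their sum was 273 CPM in WT and 390 CPM in PyMT cells (log2 ratio 0.51, 0.41 to 0.61; 0.56 after thinning). Insig2 was the most abundant of all 32 genes in the cluster by UMIs, at 175 and 256 CPM (0.55, 0.43 to 0.68). Insig1 stood at 43.7 and 61.8 CPM (0.50, 0.25 to 0.76), Srebf1 at 14.9 and 22.9 CPM (0.63, 0.20 to 1.08) and Srebf2 at 26.5 and 35.7 CPM (0.43, 0.11 to 0.77). Scap, the 1 regulator not past the fold, had a ratio of -0.02 (-0.50 to 0.47).

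Fatty acid genes did not move together there. Of the 8, Fads2 (0.74, 0.20 to 1.31) and Acly (0.37, 0.01 to 0.76) were higher past the fold and Scd1 was lower, at 29.2 CPM in WT and 13.3 CPM in PyMT cells (-1.14, -1.51 to -0.76). The median ratio was -0.01 and the sum 228 against 217 CPM (log2 ratio -0.07, -0.19 to 0.04). Thinned to 1500 UMIs per cell, the median was 0.17 and the ratio of the sums 0.10 (-0.09 to 0.31), so the direction turned. Adipocyte markers of the cluster stood at 5420 CPM in WT and 2747 CPM in PyMT cells, and Lepr stromal markers at 35159 and 30477 CPM. Immediate-early genes stood at 31447 and 56376 CPM, with 15 of 15 higher past the fold. Macrophage markers summed to 34.3 and 45.3 CPM (C1qc and Fcgr1 at 0 in both) and neutrophil markers to 37.0 and 56.6 CPM. The part of any of these in the ratios above was not tested, and a difference of genotype cannot be told apart from one between the 2 libraries.

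The log2 change in bulk MSC and the log2 ratio in the LepR mesenchymal-like cluster are set side by side for the members called in bulk. They were -0.80 and 0.75 for Hsd17b7, -1.05 and 0.85 for Stard4, and -0.49 and 0.50 for Insig1. For Cyp51 they were -1.23 and 0.11, and for Insig2 0.59 and 0.55. The tumour model, the sort and the assay all differ between the 2 data sets, so these contrasts cannot be told apart from one another, and the difference between them was not tested.

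Chondro-tendon-like cells (cluster 1, 441 WT and 367 PyMT cells) had 5 of 8 sterol genes higher and 0 lower past the fold, against 33.7% and 11.8% of all genes there. Their sum was 303 CPM in WT and 386 CPM in PyMT cells (log2 ratio 0.35, 0.19 to 0.50). Hmgcs1 (0.88), Idi1 (0.65) and Msmo1 (1.01) had intervals above 0, with lower bounds of 0.47, 0.06 and 0.39. After thinning to 1500 UMIs per cell, the log2 ratio of the sterol sums was 0.26 (-0.04 to 0.55), an interval that includes 0. With TMM scaling, which lowers every ratio there, 3 sterol genes were past the fold and the median of the arm was 0.21 instead of 0.38. Of the 8 fatty acid genes, 3 were higher and 1 lower, with Acly at 0.72 (0.23 to 1.21). The regulators summed to 236 CPM in WT and 282 CPM in PyMT cells (log2 ratio 0.26, 0.08 to 0.44). Thinned to 1500 UMIs per cell, the ratio of the regulators was 0.19 (-0.16 to 0.54).

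Fibroblast-like cells (cluster 2, 559 WT and 346 PyMT cells) had the highest level of both synthesis arms of any cluster in either library, at nearly equal sums in both. The sterol genes summed to 623 CPM in WT and 620 CPM in PyMT cells (log2 ratio -0.01, -0.11 to 0.10), and the fatty acid genes to 509 and 505 CPM. Of 14 sterol genes with enough UMIs, Hmgcs1 (0.33), Pmvk (0.63) and Hsd17b7 (1.12, 0.58 to 1.67) were higher past the fold, against 25.3% of all genes. Mevalonate kinase Mvk (-0.97, -1.83 to -0.18), Fdps (-0.40) and the sterol isomerase Ebp (-0.37) were lower, against 13.2% of all genes. Scd1 stood at 113 and 117 CPM there, against 29.2 and 13.3 CPM in the LepR mesenchymal-like cluster. Insig2 was higher in PyMT cells here too, at 82.0 and 112 CPM (0.45, 0.19 to 0.71), and in osteolineage-like cells (cluster 5, 63 WT and 55 PyMT cells), at 105 and 198 CPM (0.91, 0.50 to 1.34). In the chondro-tendon-like cluster its ratio was 0.25 (-0.03 to 0.53). Immediate-early genes were past the fold upwards for 15 of 15 in clusters 1 and 2 and 13 of 15 in cluster 5, and their part was not tested. Endothelial-like clusters 3 and 4 held 55 to 120 cells per library, too few UMIs for single members. In the sinusoidal endothelial-like cluster 3 the fatty acid genes summed to 148 CPM in WT and 269 CPM in PyMT cells (log2 ratio 0.86, 0.23 to 1.54), on 25 and 122 UMIs. In the arterial and capillary endothelial-like cluster 4 the log2 ratio was 0.72 (-0.13 to 1.60).

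**Figure D3:**
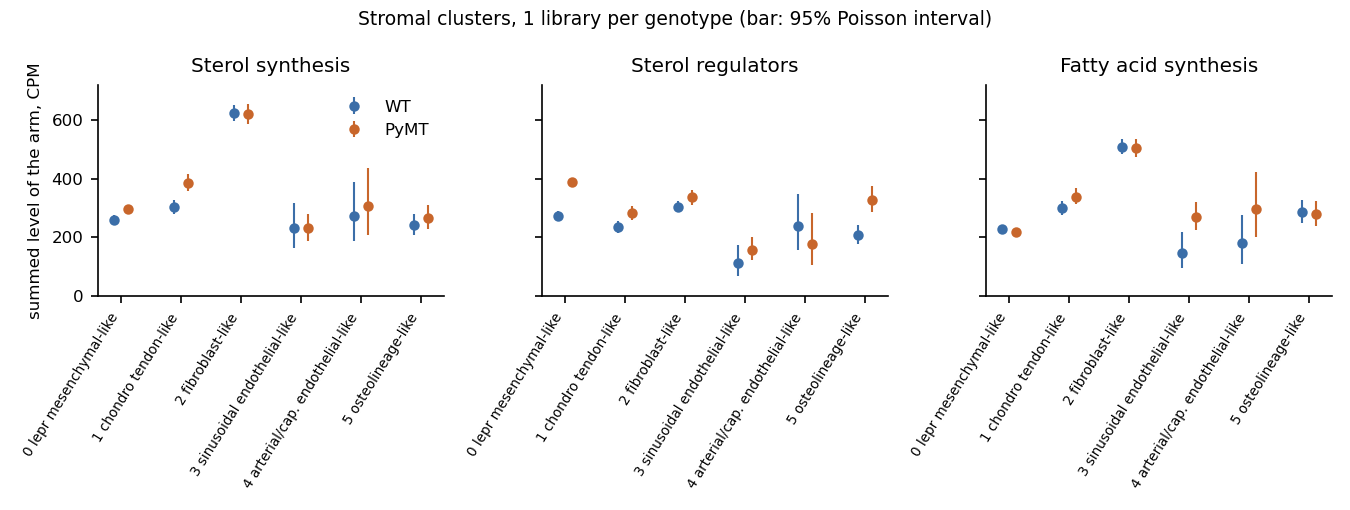
Summed level of each arm (CPM of UMIs) in the 6 stromal clusters, WT (blue) and PyMT (orange), 1 library each, with 95% Poisson intervals. Fibroblast-like cells have the highest sterol and fatty acid sums, and the regulators are higher in the PyMT library, with intervals that do not overlap, in the LepR mesenchymal-like, chondro-tendon-like and osteolineage-like clusters. After thinning to 1500 UMIs per cell, the log2 ratio of the regulators in the chondro-tendon-like cluster was 0.19 (-0.16 to 0.54).

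Between HSPC of PyMT and WT mice, no member passed edgeR's test on UMIs summed per mouse (2 against 2). Of the 32 genes, 0 passed, 7 had an unadjusted p under 0.05, and DESeq2 called 2 (Fdps and Acat2, both higher). Of all 11759 genes tested, 0.85% rose and 0.553% fell. The calls over all genes were 39.4% downward by edgeR (65 lower, 100 higher) and 25.6% downward by DESeq2 (161 lower, 467 higher). The median log2 change was 0.14 for sterol synthesis, -0.08 for the regulators and 0.04 for fatty acid synthesis, against -0.01 over all genes. Fdps stood at 150 and 126 CPM in WT and 228 and 167 CPM in PyMT mice (log2 change 0.51, SE 0.16, adjusted p = 0.128), and the thiolase gene Acat2 at 72.8 and 60.0 against 90.3 and 86.9 CPM (0.41, SE 0.11, adjusted p = 0.0789). Ebp stood at 125 and 111 against 156 and 137 CPM (0.31, SE 0.10, adjusted p = 0.122). Srebf2 stood at 87.3 and 90.4 against 71.1 and 78.9 CPM (-0.24, SE 0.10, adjusted p = 0.177), and Insig1 at 36.4 and 35.8 against 27.9 and 32.7 CPM (-0.25, SE 0.11, adjusted p = 0.215). Of the fatty acid genes, Fads2 was the 1 with an unadjusted p under 0.05, at 6.16 and 5.99 against 8.93 and 8.67 CPM (0.53, SE 0.16, adjusted p = 0.10). Scd1 was near absent from HSPC, at 0.335 to 0.806 CPM.

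The make-up of the progenitors differed between genotypes: 6 of 8 megakaryocyte and erythroid markers were lower in PyMT mice, with sums of 908 and 873 CPM in WT and 325 and 387 CPM in PyMT mice. Clusters were therefore made without the 32 genes, and the test was run again within each of the 9 clusters with at least 50 cells of every mouse. The granulocyte-monocyte-like cluster 2 held 267 and 38 cells of the WT mice and 810 and 646 of the PyMT mice. It had the highest median of Fdps (247 CPM), but was left out of these tests since WT mouse 2 had too few cells. Of 264 tests of members, 1 passed (Fdps in cluster 0, log2 change 0.62, edgeR adjusted p = 0.0347), whereas 1.27% of all 81485 tests of a gene in a cluster passed. Cluster 0 is unnamed and led by genes of mitosis such as Plk1 and Ccnb1.

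Levels of the arms differed between kinds of progenitor. The sterol synthesis sum had its highest median over mice in cluster 6, which is megakaryocyte-erythroid-like and is led by Prss34, a protease gene of basophils (1067 CPM, 1005 to 1124 over 4 mice). The granulocyte-monocyte-like cluster 2 overlapped it (888 CPM, 874 to 1052 in the 3 mice with enough cells). Cluster 9, also megakaryocyte-erythroid-like, had a lower sum of 813 CPM (730 to 836), with no overlap with cluster 6. The sum was lowest in the mitotic cluster 0 (651 CPM, 624 to 731), and the mice of clusters 0 and 6 did not overlap. The regulators stood highest in the hsc-like cluster 7 (325 CPM, 295 to 366), close to the unnamed cluster 1 (324 CPM, 308 to 350), with which it overlapped, and lowest in the granulocyte-monocyte-like cluster 2 (180 CPM, 178 to 180 in the 3 mice with enough cells). Insig1 ranged from 21.0 CPM in cluster 2 to 71.0 CPM in the hsc-like cluster and 98.4 CPM in the unnamed cluster 8. Srebf2 ranged from 49.7 CPM in cluster 2 to 140 CPM in cluster 1. Fdps stood at 247 CPM in cluster 2 and 116 CPM in the hsc-like cluster, and its lowest medians were in clusters 3 (107 CPM) and 0 (112 CPM). Msmo1 stood at 103 CPM in the hsc-like cluster and 33.2 CPM in the mitotic one. Scd1 reached 4.78 CPM in the hsc-like cluster and had medians of at most 0.939 CPM elsewhere. Fatty acid sums spanned 227 to 315 CPM over the clusters. Clusters differed in median depth, from 3058 UMIs per cell in cluster 3 to 9817 in cluster 2. Cluster 1 is mostly of WT mice and cluster 3 mostly of PyMT mice, while each mouse counts once in the medians, and cluster names rest on rebuilt clusters and on marker lists.

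**Figure D4:**
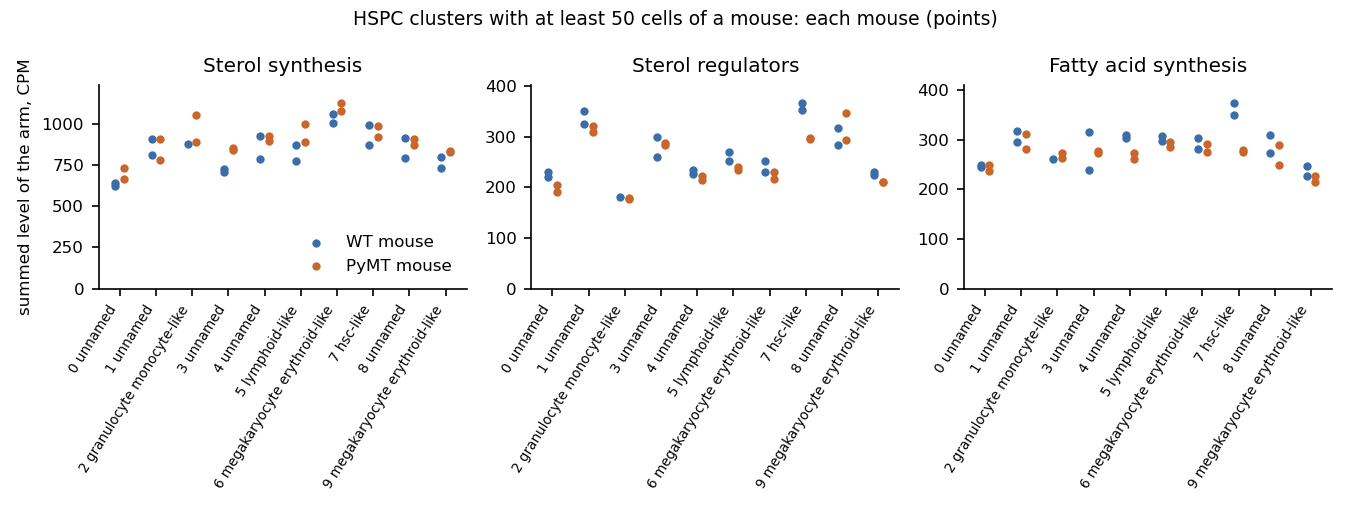
Summed level of each arm (CPM of UMIs) in the HSPC clusters, 1 point per mouse with at least 50 cells in the cluster, WT blue and PyMT orange. Sterol sums are highest in cluster 6, where they overlap those of cluster 2, and lowest in cluster 0, and regulators are high in clusters 1, 7 and 8.

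HSPC were also compared by the authors' deposited cell cycle phase, tested per mouse (4 mice, mouse as a term). Many sterol genes were lower in cells called G2M than in cells called G1: of 19 sterol synthesis genes, 14 fell and 2 rose, against 26.1% and 27.6% of the 11098 genes tested. The median log2 change was -0.46, against -0.00 over all genes, and the sum was 911 ± 66.9 CPM in G1 and 701 ± 48.9 CPM in G2M (SD, n = 4 mice). It was lower in each of the 4 mice. Of the 5 regulators 3 fell, and of the 7 fatty acid genes tested 3 fell. In cells called S, 8 of 19 sterol genes fell and 1 rose, against 17.5% and 20.8% of 10900 genes tested, with a median of -0.21 (all genes -0.02) and a sum of 750 ± 64.6 CPM (SD, n = 4 mice). Without mouse as a term, 9 sterol genes fell in G2M and 5 in S, and Fdps and Ebp were among those that lost their call in G2M.

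Between G2M and G1, Cyp51 went from 39.9, 33.9, 41.3 and 38.0 CPM in G1 (WT mice 1 and 2, PyMT mice 1 and 2) to 19.8, 16.6, 26.3 and 18.5 CPM in G2M. It was 1.88-fold lower (log2 change -0.91, SE 0.07, edgeR adjusted p = 4.06e-12), and all 4 mice fell. Fdps went from 161, 137, 238 and 176 CPM to 112, 100.4, 182 and 129 CPM (-0.45, SE 0.04, adjusted p = 3.03e-12). Acat2 went from 79.6, 65.7, 102 and 94.2 CPM to 54.3, 46.2, 60.4 and 64.0 CPM (-0.60, SE 0.05, adjusted p = 4.40e-12). Each mouse fell in these genes, while the mice of the 2 phases overlap for Fdps since PyMT mouse 1 is high in both. Idi1 went from 55.0, 48.7, 51.6 and 42.0 CPM to 29.4, 29.2, 32.5 and 28.1 CPM (-0.72, SE 0.06, adjusted p = 3.04e-11), and Sqle from 62.1, 56.8, 66.6 and 62.0 CPM to 42.0, 36.8, 45.2 and 39.0 CPM (-0.60, SE 0.05, adjusted p = 4.06e-11). Msmo1 (-0.57) and Sc5d (-0.68) fell in every mouse, from 48.8 to 65.9 CPM down to 36.6 to 41.6 CPM and from 18.6 to 20.6 CPM down to 10.3 to 14.0 CPM. Hsd17b7 had the largest fall of the 31 genes tested, -1.16 (SE 0.20), at 4.79 to 5.95 CPM in G1 and 1.29 to 3.48 CPM in G2M.

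The 2 risers in G2M were Ebp and Mvk. Ebp went from 112.6, 102.5, 147.5 and 126.8 CPM to 145.6, 126.8, 162.2 and 156.5 CPM (log2 change 0.28, SE 0.04, edgeR adjusted p = 4.26e-07), higher in all 4 mice, and by 0.13 (adjusted p = 0.0109) without clusters 1, 3 and 7. Mvk went from 11.2 to 14.1 CPM up to 15.3 to 22.5 CPM (0.60, SE 0.10, adjusted p = 1.47e-05). Insig1 fell from 43.1, 42.4, 30.7 and 36.8 CPM to 24.8, 26.0, 22.7 and 24.1 CPM (-0.64, SE 0.07, adjusted p = 2.24e-09), and Insig2 (-0.28) and Srebf2 (-0.17) fell too. Srebf2 changed direction to 0.08 (adjusted p = 0.27) and Insig2 lost its call (-0.16, adjusted p = 0.0725) when clusters 1, 3 and 7 were left out. These clusters were chosen after seeing stem cell markers there and few cells called S or G2M. Among them only cluster 7 is hsc-like, with 7 of 8 markers more than 2-fold above the other cells, and clusters 1 and 3 are unnamed. Fasn fell from 33.3, 31.0, 37.7 and 25.3 CPM to 16.5, 18.5, 27.2 and 17.8 CPM (-0.67, SE 0.08, adjusted p = 8.15e-08). Fads1 (-0.40) and Fads2 (-0.50) fell as well. The call of Fads2 was lost with DESeq2 (adjusted p = 0.0595) and without mouse as a term (edgeR adjusted p = 0.133). Acly, the most abundant fatty acid gene by UMIs, had -0.08 (edgeR adjusted p = 0.108), at 118 to 120 CPM in G1 and 104 to 118 CPM in G2M.

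In S against G1, Insig1 had the smallest p of the members, from 42.9, 42.2, 30.5 and 36.6 CPM to 19.8, 16.2, 17.7 and 21.3 CPM (log2 change -0.97, SE 0.11, edgeR adjusted p = 2.83e-10). Msmo1 went from 65.5, 48.5, 59.2 and 61.0 CPM to 34.1, 24.2, 43.9 and 36.7 CPM (-0.73, SE 0.09, adjusted p = 7.36e-09). Sqle (-0.53), Hmgcs1 (-0.47), Fdft1 (-0.48), Cyp51 (-0.41), Mvd (-0.70), Idi1 (-0.29) and Acat2 (-0.21) fell in all 4 mice. Idi1 lost its call with DESeq2 and without WT mouse 1 (-0.19, adjusted p = 0.131), and Acat2 with DESeq2 and without PyMT mouse 1 (-0.13, adjusted p = 0.218). Fdps had one of the smallest edgeR p-values of the members in G2M, at a log2 change of -0.45. In S it had -0.03 (edgeR adjusted p = 0.608), at 129 to 230 CPM against 136 to 237 CPM in G1. Without clusters 1, 3 and 7 Fdps was lower in S, at -0.22 (edgeR adjusted p = 1.63e-05). Idi1 (-0.37) and Acat2 (-0.36) also had larger falls in that setting. The change of Fdps from S to G2M was not tested. Ebp rose (0.23, SE 0.05, adjusted p = 0.000252), from 102 to 147 CPM up to 123 to 167 CPM, and without clusters 1, 3 and 7 it had 0.09 (adjusted p = 0.178). Srebf2 fell (-0.35, SE 0.07, adjusted p = 9.23e-05), and without those clusters it had -0.12 (adjusted p = 0.246). The 1 fatty acid gene called was Acly, higher by 0.13 (adjusted p = 0.0375), a call kept in 1 of 4 fits that left out a mouse (the call was lost in the other 3).

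Other features moved with phase. Markers of stem cells fell for 7 of 8 genes in both phases, with sums of 479 ± 120 CPM in G1, 272 ± 78.8 CPM in S and 278 ± 59.2 CPM in G2M (SD, n = 4 mice). Immediate-early genes fell for 11 of 14 in S and 9 of 14 in G2M, from 2025 to 1169 and 1280 CPM as means over mice. Median depth was 3592 to 5962 UMIs per cell in G1, 6622 to 10975 in S and 6820 to 10471 in G2M. Phase calls are read from the same cells' expression, so they are not a measure of cycling on their own, and the part of cell type and of depth in the differences was not tested. Without clusters 1, 3 and 7, 11 sterol genes fell in G2M and 9 in S. Free RNA was not measured, so its part in levels per phase was not tested.

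**Figure D5:**
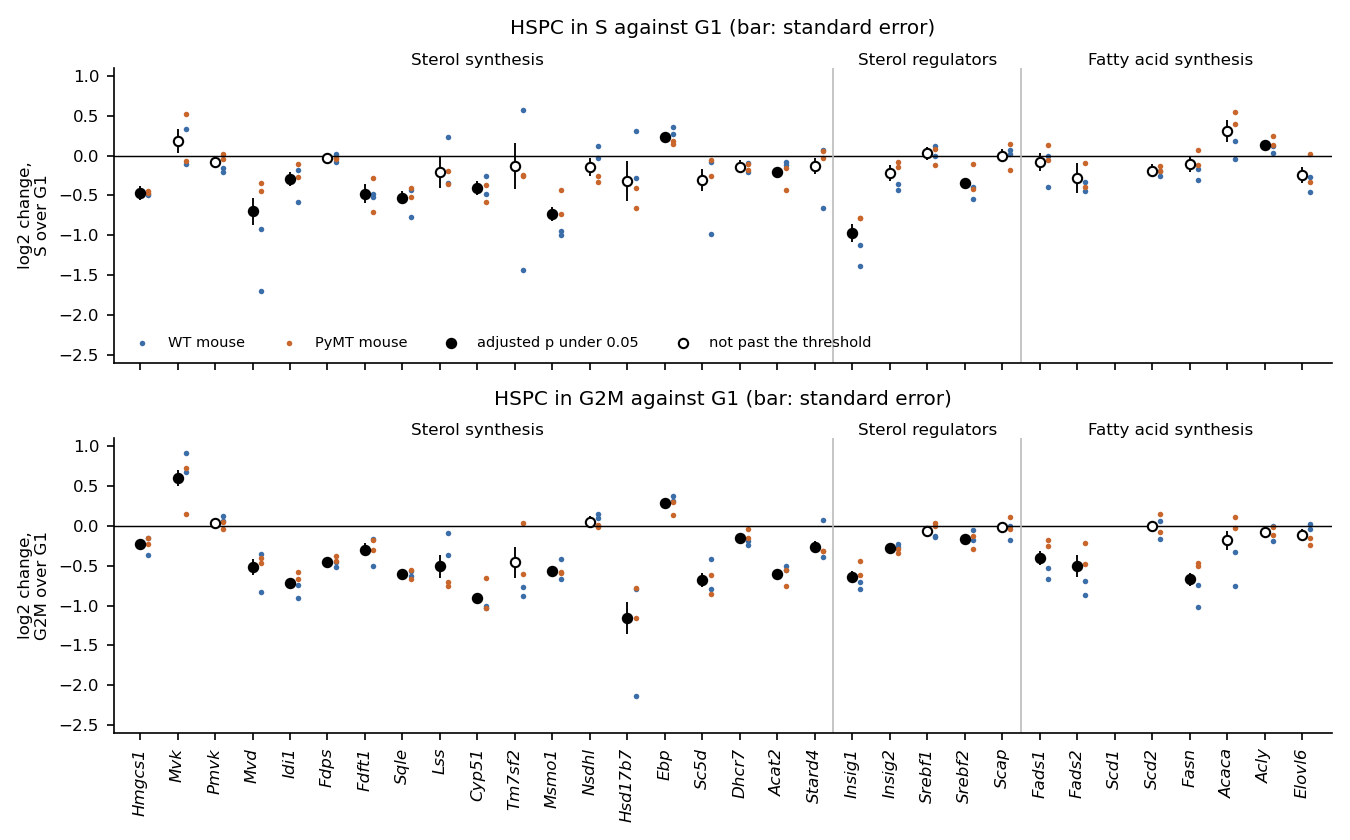
Log2 change of each gene in HSPC called S (upper panel) and G2M (lower panel) against G1. Black symbols are edgeR estimates with their standard errors (filled: adjusted p under 0.05), and coloured points are single mice, WT blue and PyMT orange; Scd1 was too low to be tested. Most sterol synthesis genes lie below 0 in G2M in all 4 mice, while Ebp and Mvk lie above 0.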

How the data were processed

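The deposited bulk table holds counts of reads per gene, made by the authors with Trim Galore and STAR 2.5.3a on mm10, per the submitters' processing notes; the kit is strand-specific total RNA for small inputs, per the labels' protocols. No source used here names the counter, its strand setting or its annotation. The deposited single-cell tables hold counts of UMIs per cell from 10x libraries and Cell Ranger 6.0.0, per the submitters' processing notes, and the labels name version 3.1 of the kit in one place and version 2 or 3 in another. The HSPC table was filtered by the authors before deposit. The deposited stromal cell tables also give the authors' clusters and the fraction of mitochondrial UMIs, and the deposited HSPC cell table gives phase calls and the percent of mitochondrial UMIs.

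Gene IDs were named from GENCODE M21 (50376 of 50600 matched). Stromal cells with at least 500 genes and at most 10% mitochondrial UMIs were kept, and no doublet caller was run. HSPC were clustered without the 32 genes with scanpy 1.11.5 and leidenalg 0.10.2, at resolution 0.6, on 20 neighbours in 30 components of the 2000 most variable genes. Counts were tested with edgeR 4.0.16 (quasi-likelihood, TMM, Benjamini-Hochberg threshold 0.05) in R 4.3.3, with DESeq2 1.42.0 as an alternative; single-cell counts were summed per mouse first. Stromal libraries were compared by ratio only, with a log2 ratio of 0.32 and 50 UMIs as limits, and thinning to 1500 UMIs as an alternative. Scripts were tested on simulated data. Named with values are the members past the threshold (up to 10 per comparison by smallest p) and the 3 of highest level per arm; others were named after their values were seen. Pathway lists are given by counts, naming at most 4 genes. Members and lists were chosen with earlier results of these data known. Other settings were no filter on low counts, other size factors, each library left out and, added after seeing the data, library and cluster exclusions.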

Additional observations from a re-analysis of the deposited data

Results flagged for a closer look

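In 64 groups of 4 bulk libraries (each gene in each group), 3 had a highest library further from the other 3 than Dixon's 95% limit for a group of 4 allows, and chance gives about 1 in 20 such groups. Squalene epoxidase Sqle stood at 10.4 CPM in Py230 replicate 4, against 2.53 to 2.97 CPM in the other 3 Py230 libraries. The methylsterol oxidase gene Msmo1 stood at 9.74 CPM in the same library. Scd1 stood at 144 CPM in Py230 replicate 1, against 27.0 to 46.0 CPM in the other 3.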

How the results depend on the processing

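In bulk MSC, DESeq2 called 5 sterol synthesis genes lower and 8 members in all, and no filter on low counts gave 6 and 9. Leaving out both libraries with the fewest genes gave 476 genes over the whole table. Leaving out 1 library at a time gave 377 to 682 genes, 3 to 8 members and 2 to 5 lower sterol synthesis genes, with medians of -0.62 to -0.44 (sterol), -0.14 to 0.11 (regulators) and -0.05 to 0.10 (fatty acid). Same-numbered libraries of the 2 groups did not deviate together (correlations of -0.39, -0.13, -0.20 and 0.02), and not every library correlated best with its own number. With the replicate number as a block, 374 genes and 3 members passed, and Insig1 (-0.54) and Insig2 (0.53) lost their calls. In HSPC by genotype, DESeq2 called 628 genes and 2 members, and equal weight for each cluster gave medians of -0.17 (regulators) and -0.14 (fatty acid). Leaving out 1 mouse leaves 1 in its group, which is then assumed to vary like the other group, so the counts of 184 to 1932 genes and 0 to 7 members are no sign of stability; they came with medians of 0.06 to 0.21 (sterol), -0.10 to -0.06 (regulators) and -0.09 to 0.03 (fatty acid).

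In S against G1, DESeq2 called 2591 genes and no mouse block gave 1248 genes, 7 members and 5 lower sterol synthesis genes. Without clusters 1, 3 and 7, 2556 genes passed and the sterol median was -0.34. Leaving out 1 mouse gave 3273 to 3825 genes, 11 to 12 members and 7 to 8 lower sterol synthesis genes, with medians of -0.29 to -0.22 (sterol), -0.29 to -0.17 (regulators) and -0.18 to -0.09 (fatty acid). In G2M against G1, DESeq2 called 3760 genes and 9 lower sterol synthesis genes, and no mouse block gave 2266, 9 and 14 members. Leaving out 1 mouse gave 4953 to 5756 genes, 20 to 24 members and 12 to 15 lower sterol synthesis genes, with medians of -0.48 to -0.42 (sterol), -0.20 to -0.13 (regulators) and -0.33 to -0.12 (fatty acid). Srebf2 changed direction (0.08) without clusters 1, 3 and 7.

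In the stroma, thinning to 1500 UMIs gave cluster 0 medians of 0.09 (sterol) and 0.17 (fatty acid), a fatty acid sum ratio of 0.10 and Nsdhl at -0.24, opposite to its main value. It gave cluster 1 medians of 0.58 (sterol) and 0.12 (regulators, 1 past the fold), and cluster 2 medians of -0.29, -0.28 and 0.47 (fatty acid). A TMM factor gave cluster 1 medians of 0.21, 0.14 and -0.00, with 3 sterol genes and 0 regulators past the fold. The mean over cells gave 1 regulator past the fold in cluster 1, and in cluster 2 a sterol median of -0.28 and 0 regulators. The cause of these shifts was not tested. Among values of single members, 377 of the bulk values kept their side of the threshold while 13 gained and 12 lost a call. In G2M 253 kept it, 3 gained, 22 lost and 1 reversed. Below the threshold, 16 bulk values of 5 members and 4 G2M values of 2 members changed sign.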
